A study of Mus musculus with 12 samples.

Results

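Mouse embryonic stem cells that carry eIF2α A/A (KI) were compared with eIF2α +/+ (WT) cells by RNA-seq after 6 days in medium with LIF, across every gene that passed a count filter. The comparison takes all 6 LIF libraries of the 12 RNA-seq libraries analysed, 3 of each genotype, chosen by their labels. The counts of WT replicates 1 and 3 agreed within sampling noise, so their mean was used as 1 sample, which left 2 WT and 3 KI samples of the 11 fitted. The other 6 libraries come from the same genotypes in LIF/2i, that is, LIF with the MEK inhibitor PD0325901 and the GSK3 inhibitor CHIR99021. Both genotypes shared a serum-free medium with KnockOut Serum Replacement, non-essential amino acids, pyruvate and GlutaMax. All cells were washed with cycloheximide before lysis, and RNA was taken from the cleared lysate, depleted of ribosomal RNA and fragmented. The labels name neither the strain, the number of clones per genotype nor whether replicates were separate cultures, so the p-values below reflect differences among the libraries in hand and may hold technical spread alone.

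eIF2α, encoded by Eif2s1, is the subunit of the initiation factor eIF2 that 4 stress kinases phosphorylate. The phosphorylated form holds back the exchange factor eIF2B, which lowers general translation and raises translation of a few mRNAs, among them that of the transcription factor ATF4. ATF4 in turn raises transcription of genes for amino acid synthesis, amino acid uptake, tRNA charging and feedback on the response itself. In the A/A form an alanine takes the place of the phosphorylated serine, so the protein is made but cannot be marked. Naive pluripotency is the state of the preimplantation epiblast, which LIF with the inhibitors holds most evenly, while cells in LIF without them are known to be mixed.

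The libraries held 6092300, 6376905 and 6333407 counts in WT replicates 1, 2 and 3, and 2835135, 4609908 and 2307219 in KI replicates 1, 2 and 3. Levels are given as CPM scaled by TMM, and by library totals 3 counts corresponded to 0.47 to 0.492 CPM in WT and to 0.651 to 1.3 in KI. The chi-square per degree of freedom between WT replicates 1 and 3 was 0.858, against 11.8 and 12.4 for each of them with replicate 2 and 2.61 to 13 between KI libraries. WT replicate 2 also held more transcripts of fibroblast and simple epithelial genes than the agreeing pair, with Col1a2 at 206 CPM against 7.43. Y-linked genes together gave 165, 77.6 and 156 CPM in WT, but 36.7, 2.17 and 3.9 in KI, so Y-linked RNA was lower in every KI library. The correlation of log2 CPM was 0.986 between KI replicates 2 and 3 and 0.962 between KI replicate 1 and each of them. All 7 embryonic stem cell markers were detected in every library, from Zfp42 at 32.1 to 45.5 CPM to Utf1 at 573 to 1450, as the label of the cells calls for. Whether depth, the Y-linked difference or WT replicate 2 has a part in the results that follow was not tested beyond the values without single libraries.

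KI cells in LIF had lower RNA for enzymes of asparagine, serine and mitochondrial phosphoenolpyruvate synthesis and for the laminin subunit gene Lama1, and higher RNA for the cell cycle gene Ccnd1 and the neural factor gene Olig2. Of 13239 genes tested, 2 rose (0.0151%) and 17 fell (0.128%) by edgeR's quasi-likelihood test at a Benjamini-Hochberg adjusted p under 0.05. The decreases ran from 1.10 to 2.79 on the log2 scale. In all 19 genes the KI samples lay wholly to one side of the WT samples, which was also so for 2115 tested genes above WT (16%) and 2091 below it (15.8%). The median log2 fold change over all tested genes was 0.00, and 49.9% of them were below 0.

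The count rested on few samples. Without KI replicate 2, without KI replicate 3 or without the agreeing WT pair, 1 of the 19 genes stayed past the threshold, the semaphorin gene Sema5a. Without WT replicate 2 there were 5, namely Sema5a, Dnah12, Asns, Dclk2 and Psat1, without KI replicate 1 there were 13, and without WT replicate 3 there were 18. All 19 kept their direction in each of these fits, with adjusted p-values up to 0.354. At an unadjusted p under 0.05 the comparison held 666 higher genes (5.03%) and 756 lower genes (5.71%). These shares, and the 16% and 15.8% of genes wholly above or below WT, are the background for the list counts below. For list counts by DESeq2, a second method, the shares were 0.72% higher and 1% lower of 11950 genes.

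**Figure D1:**
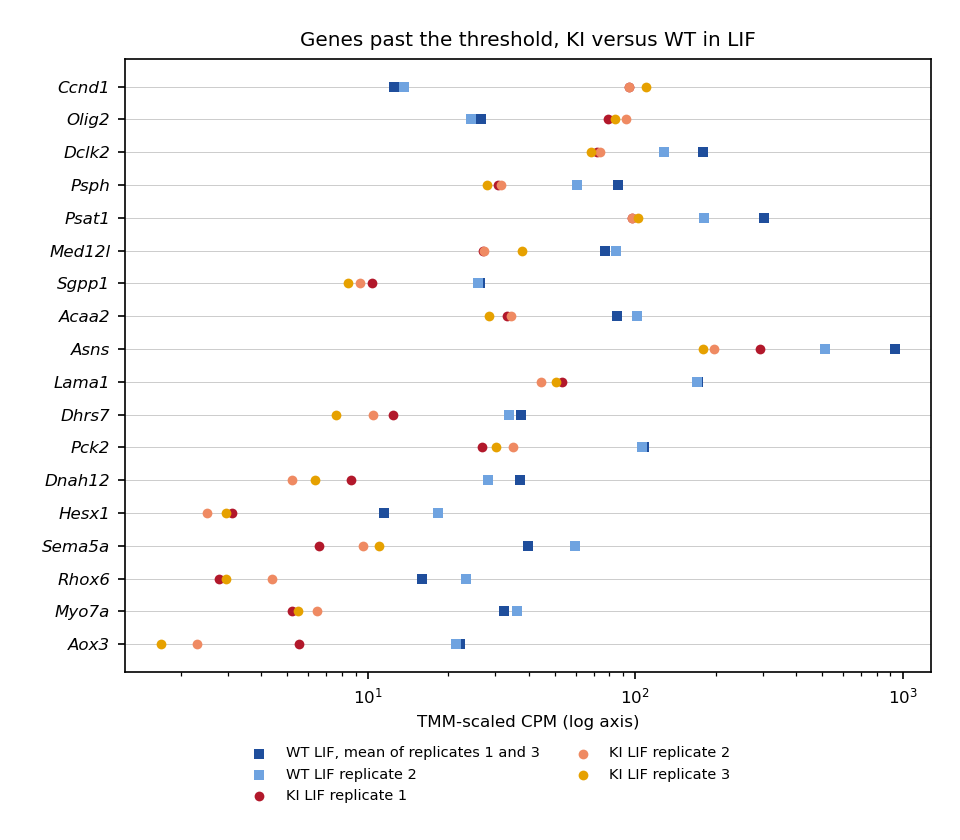
TMM-scaled CPM (log axis) in each LIF sample for 18 of the 19 genes past the threshold, ordered by log2 fold change; squares are WT samples and circles KI samples. Ccnd1 and Olig2 lie higher in all 3 KI samples, and the other 16 genes shown lie lower in all 3 with no overlap.

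**Figure D2:**
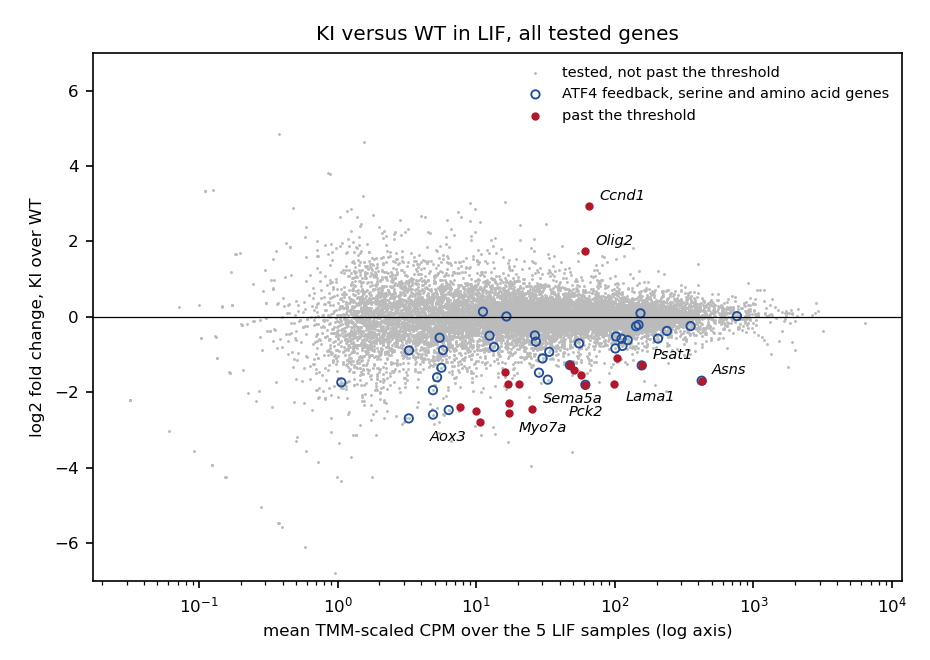
Log2 fold change of KI over WT in LIF against the mean TMM-scaled CPM of the 5 samples (log axis) for the 13239 tested genes; filled points passed the threshold and open circles are genes of the ATF4 feedback, serine and amino acid metabolism lists. The open circles sit mostly below 0, and 4 of them are also filled.

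The genes nearest to the known output of eIF2α phosphorylation carry, in part, a sequence that ATF4 with a C/EBP partner is known to bind. The letters TGATGNAA, on either strand, were searched in the RefSeq promoter windows of GRCm38.p6, from 250 bases before to 50 after each start. Some genes have several starts, and a gene was counted if any of its windows held the letters. Vldlr and Jdp2 held them in some of their windows only. They stood in 266 of the 10284 tested genes with a window (2.59%) and in 1219 of the 27025 genes with a window in all (4.51%). Among members with a window they stood in 6 of 15 ATF4 and stress feedback genes, 5 of 12 amino acid metabolism genes, 5 of 12 cytosolic tRNA synthetase genes, 1 of 7 amino acid transporter genes and 0 of 9 serine and one-carbon genes. Of the 13 genes that fell and have a window, Asns, Pck2 and Hesx1 held the letters (23.1%). The stretches below come from members of the 5 lists with a match, and are shown because the gene passed the threshold (Asns, Pck2), belongs to the panel (Trib3) or had one of the larger fold changes among those members. Each runs 5′ to 3′ on the strand that holds the letters, which are in capitals.
Asns, chr6:7693214-7693243, minus strand: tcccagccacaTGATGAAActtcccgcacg
Pck2, chr14:55540152-55540181, minus strand: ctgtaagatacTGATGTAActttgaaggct
Trib3, chr2:152344028-152344057, plus strand: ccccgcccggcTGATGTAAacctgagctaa
Vldlr, chr19:27216809-27216838, minus strand: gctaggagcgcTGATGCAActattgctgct
Chac1, chr2:119351038-119351067, minus strand: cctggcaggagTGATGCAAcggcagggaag
Nupr1, chr7:126625562-126625591, plus strand: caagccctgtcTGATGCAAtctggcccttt
Atf3, chr1:191183425-191183454, plus strand: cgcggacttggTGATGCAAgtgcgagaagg
Pycr1, chr11:120643833-120643862, minus strand: tgccctgtgtaTGATGCAAtgcacaaggct
Jdp2, chr12:85599372-85599401, plus strand: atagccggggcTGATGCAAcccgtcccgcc
The match in Asns began 23 bases before the RefSeq start and lay on the gene's own strand. That in Pck2 began 103 bases before the RefSeq start on the opposite strand. Gene positions given below are those of the counted transcript, whose start can differ from the RefSeq start, as it does in Asns.

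Within these 5 lists, the genes with the letters lay lower in KI samples than those without. Of the 53 tested members with a window, 16 had the letters, and in all 16 every KI sample was below both WT samples, with a median log2 fold change of -1.38. Of the 37 without them, 27 had a fold change below 0 and 14 had every KI sample below WT, with a median of -0.49. Among tested genes outside the lists, every KI sample was below WT in 57 of 250 genes with the letters (22.8%) and in 15.7% of 9981 genes without. The difference between these groups was not tested, and a match is a description of the sequence, not a binding site measured here. The lists hold genes of known ATF4 output and were chosen with earlier results of these data known. The letters were also unevenly spread over the lists, with 0 of 9 serine and one-carbon genes holding them.

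Atf4, which encodes the factor itself, was at 391 CPM in the WT pair and 387 in WT replicate 2, and at 263, 331 and 388 in KI replicates 1, 2 and 3. KI replicate 3 overlapped the WT samples, and the log2 fold change was -0.25 ± 0.20 (SE, adjusted p = 0.722). ATF4 is regulated mainly through translation, which these libraries do not measure.

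The ATF4 and stress feedback list holds factors that ATF4 induces and that dampen or extend the response. None of its 16 tested members passed the threshold, but 15 had a fold change below 0, 10 had every KI sample below both WT samples, and the median was -0.99. At an unadjusted p under 0.05 there were 8 members, all lower, DESeq2 called 3, all lower (Atf5, Chac1 and Vldlr), against 1% of all genes it tested, and limma-voom called 0. The list's median lay between -1.25 and -0.89 over the 18 settings of the analysis. Chac1, which degrades glutathione, was at 12.5 and 7.28 CPM in WT and at 1.04, 2.3 and 1.27 in KI, a log2 fold change of -2.59 ± 0.56 (adjusted p = 0.114). Vldlr, a lipoprotein receptor, was at 7.9 and 5.31 CPM in WT and at 0.346, 1.04 and 1.69 in KI (log2 -2.69 ± 0.60, adjusted p = 0.12). Both genes separated the genotypes with levels near the 3-count limit in KI. Atf5, a factor related to ATF4, was at 48.4 and 43.8 CPM in WT and at 11.1, 17.7 and 20.7 in KI (log2 -1.48 ± 0.30, adjusted p = 0.104). Trib3, a pseudokinase that restrains AKT and ATF4, was at 47.4 and 41.2 CPM in WT and at 18, 22.1 and 21.6 in KI (log2 -1.10 ± 0.30, adjusted p = 0.205). In each of these genes the lowest WT sample was above the highest KI sample, while the adjusted p missed the threshold. Nupr1, a small stress-induced chromatin protein, and the secreted glycoprotein gene Stc2 had log2 fold changes of -2.47 ± 0.77 and -1.95 ± 0.72. Sesn2 and Ddit4, which restrain mTORC1 and also belong to stress programmes other than that of ATF4, overlapped, because KI replicate 1 was at 189 and 86.9 CPM while KI replicates 2 and 3 were at 41.9 and 49.9 for Sesn2 and at 26.1 and 19.5 for Ddit4.

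Of 13 tested members of the amino acid metabolism list, Asns and Pck2 passed the threshold and fell, 12 had a fold change below 0, 8 had every KI sample below WT, and the median was -0.80. Asns, which makes asparagine from aspartate (gene at chr6:7675169-7692871, GRCm38), was at 932 CPM in the WT pair and 513 in WT replicate 2, and at 292, 198 and 180 in KI replicates 1, 2 and 3. The WT samples differed by more than the KI samples did, and even the lower one was above all KI samples. Asns fell by 1.69 ± 0.26 on the log2 scale (adjusted p = 0.0313). Leaving out single libraries or the pair moved that value between -2.08 and -1.20, and the adjusted p reached 0.246. DESeq2 called 5 members of the list, all lower (Asns, Chac1, Gpt2, Pck2 and Pycr1), while limma-voom called Pck2 alone. Asns had an adjusted p of 0.0537 by limma-voom and of 0.0728 in an edgeR fit of only the LIF groups.

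Pck2, the mitochondrial phosphoenolpyruvate carboxykinase (chr14:55540266-55550017), was at 108 and 106 CPM in WT and at 26.7, 35.1 and 30 in KI. The WT samples were nearly equal and the KI samples lay far below them. Pck2 fell by 1.80 ± 0.22 on the log2 scale (adjusted p = 0.0101), with a range of -1.93 to -1.71 and adjusted p-values up to 0.0933 when single libraries or the pair were left out. Pycr1, which makes proline, was at 61.8 and 50.3 CPM in WT and at 16.3, 23.8 and 11.8 in KI (log2 -1.67 ± 0.37, adjusted p = 0.12). Gpt2, the mitochondrial alanine aminotransferase, was at 49.9 and 44.3 CPM in WT and at 23.9, 27.1 and 22.8 in KI (log2 -0.93 ± 0.24, adjusted p = 0.181). Cth, of cysteine synthesis, did not separate the groups, since the WT samples stood at 208 and 65.6 CPM and KI at 40.2, 82.2 and 108.

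Psat1 and Psph, of the later steps of serine synthesis, fell. Of 10 tested serine and one-carbon genes, 2 passed the threshold, 5 had every KI sample below WT (15.8% over all tested genes), and the median was -0.64. Psat1, the transaminase of serine synthesis (chr19:15904678-15925059), was at 303 and 181 CPM in WT and at 97.3, 97 and 103 in KI. The KI samples were close together and all below the lower WT sample. Psat1 fell by 1.29 ± 0.22 on the log2 scale (adjusted p = 0.0459). Psph, the phosphatase that releases serine (chr5:129765558-129787449), was at 86.3 and 60.5 CPM in WT and at 30.8, 31.5 and 27.9 in KI. It fell by 1.28 ± 0.21 (adjusted p = 0.0428), again without overlap. With single libraries or the pair left out, Psat1 ranged from -1.63 to -0.87 and Psph from -1.54 to -1.01, with adjusted p-values up to 0.354 for both. DESeq2 called both genes, but limma-voom called 0 of the list, as did edgeR with library totals alone and edgeR with only the LIF groups. In those 3 settings the adjusted p was 0.0784, 0.0624 and 0.0617 for Psat1, and 0.0766, 0.0519 and 0.0528 for Psph. Phgdh, the first enzyme of the pathway, was at 9.8 and 7.88 CPM in WT and at 2.77, 3.76 and 3.81 in KI (log2 -1.35 ± 0.42, adjusted p = 0.25). Mthfd2, of mitochondrial one-carbon metabolism, had a log2 fold change of -0.77 ± 0.27 (adjusted p = 0.327), whereas Shmt2, which splits serine in the same compartment, overlapped (log2 -0.25 ± 0.26).

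Amino acid transporters held no gene past the threshold by edgeR or limma-voom, 5 lower ones at an unadjusted p under 0.05, and 1 by DESeq2, Slc1a4. Of 11 tested transporter genes, 7 were below 0 and 5 had every KI sample below WT, against 15.8% of all tested genes. The median of the transporters was -0.40. Slc1a4, a carrier of alanine, serine and cysteine, was at 49.2 and 42 CPM in WT and at 17, 21.9 and 22 in KI (log2 -1.16 ± 0.30, adjusted p = 0.182). Slc6a9, a glycine transporter, had a log2 fold change of -1.20 ± 0.52 and Slc7a5, a carrier of large neutral amino acids, of -0.43 ± 0.16. Slc7a11, the cystine carrier, was under the count filter, with 8, 6 and 9 counts in WT replicates 1, 2 and 3 and 0 in each KI library. Slc38a2, Slc7a3, Slc43a1 and Slc7a6 had fold changes above 0, with overlapping samples.

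The cytosolic tRNA synthetases, which charge tRNAs with amino acids, had 15 of 20 tested genes below 0, with a median of -0.23. In 8 of them every KI sample was below WT, against 15.8% of all tested genes. None passed the threshold by edgeR or limma-voom, 6 had an unadjusted p under 0.05, all lower, and DESeq2 called 4, all lower (Aars, Cars, Nars and Sars). Nars, for asparagine, was at 617 and 428 CPM in WT and at 274, 288 and 281 in KI (log2 -0.90 ± 0.15, adjusted p = 0.0517). Sars, for serine, was at 438 and 466 CPM in WT and at 187, 253 and 226 in KI (log2 -1.03 ± 0.19, adjusted p = 0.0711). Both separated the groups and lay just outside the threshold. Gars, for glycine, and Cars, for cysteine, had log2 fold changes of -0.84 ± 0.35 and -0.69 ± 0.15 with no overlap. Among the synthetases, 5 genes had fold changes above 0, the largest being Hars, for histidine, at 0.20 ± 0.13.

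**Figure D3:**
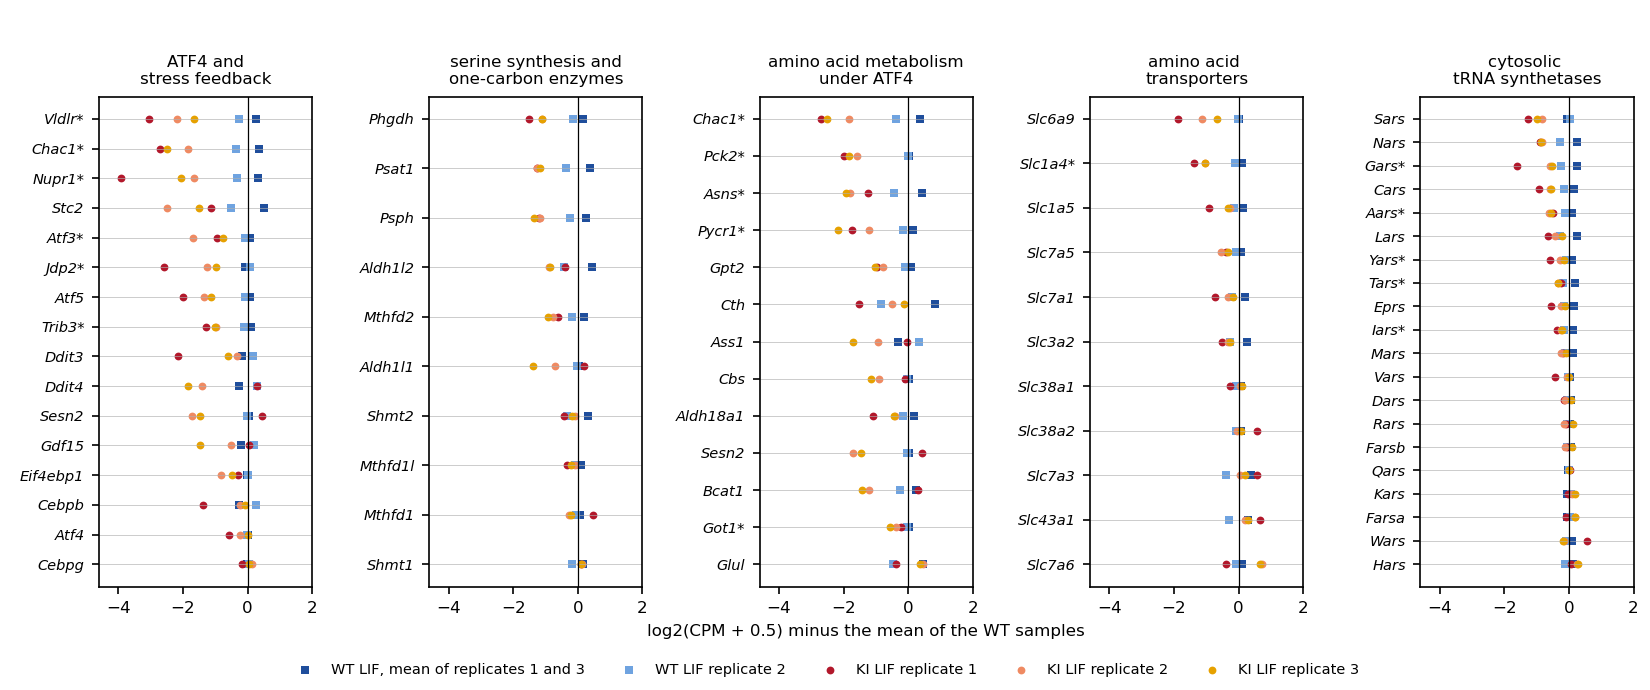
Each sample's log2(CPM + 0.5) minus the mean of the WT samples for every tested member of 5 lists. Squares are WT samples and circles KI samples. An asterisk marks a gene with TGATGNAA in any of its RefSeq promoter windows. Starred genes have all 3 KI circles to the left of both WT squares, with wide gaps in Pck2 and Chac1 and narrow ones in Iars and Tars.

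Genes of the machinery upstream of ATF4 were not past the threshold in RNA. Eif2s1, which carries the A allele, was at 32.6 and 28.5 CPM in WT and at 37, 38 and 36 in KI (log2 0.28 ± 0.24, adjusted p = 0.744). The allele changes a codon and the deposited counts do not read it, so they do not check the genotype. None of 8 tested eIF2 and eIF2B subunit genes passed the threshold (median 0.11), nor any of 7 kinase and phosphatase subunit genes (median -0.16), and in both lists 0 had an unadjusted p under 0.05 and DESeq2 and limma-voom called 0. The subunit list leaves out Eif2s3y, the Y-linked gene for an eIF2 subunit. The 4 tested Y-linked genes, Eif2s3y among them, had log2 fold changes of -3.32 to -2.93. In all 4 every KI sample was below WT, with edgeR adjusted p-values of 0.268 or more. Eif2ak3 and Eif2ak4, which encode the kinases PERK and GCN2, had log2 fold changes of -0.16 ± 0.23 and -0.28 ± 0.23 with overlapping samples. Ppp1r15a, the stress-induced phosphatase subunit, was at 48 and 26.8 CPM in WT and at 35, 53.2 and 55.9 in KI (log2 0.36 ± 0.32). ER chaperone genes, which answer mainly to the other arms of the unfolded protein response, had no member of 16 past the threshold by edgeR, DESeq2 or limma-voom and 2 lower ones at an unadjusted p under 0.05, with a median of -0.10. Hspa5, the main ER chaperone, overlapped (log2 0.03 ± 0.14), while Herpud1, of ER protein degradation, was at 22.3 and 17.6 CPM in WT and at 10, 8.76 and 12.7 in KI (log2 -0.94 ± 0.26, adjusted p = 0.205).

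Ccnd1, which encodes cyclin D1 and drives entry into S phase with CDK4 and CDK6, had the larger of the increases. It was at 12.5 and 13.6 CPM in WT and at 94.9, 94.9 and 110 in KI. The lowest KI sample was far above both WT samples. Ccnd1 (chr7:144929931-144939869) rose by 2.93 ± 0.38 on the log2 scale (adjusted p = 0.0162). With single libraries or the pair left out it stayed between 2.86 and 2.98, with adjusted p-values up to 0.194. Ccnd1 belongs to the ERK target, Wnt target and G1 lists, and in each it was the sole member past the threshold.

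No other gene of those lists passed the threshold, and DESeq2 and limma-voom also called Ccnd1 alone in each. At an unadjusted p under 0.05 there were 3 lower and 1 higher ERK targets, 2 lower and 1 higher G1 genes and 3 higher Wnt targets. Ccnd1 is among the higher ones of each list, and the shares over all tested genes were 5.71% lower and 5.03% higher. Of 17 tested ERK targets, 9 were below 0 and 8 above it, with a median of -0.05 that changed sign between settings (-0.21 to 0.21). Single ERK targets ranged from -3.58 to 2.93 on the log2 scale. Dusp6 and Spry2, feedback inhibitors that follow ERK activity, had log2 fold changes of -0.06 ± 0.29 and -0.05 ± 0.21. Egr1, an immediate early gene, rested on the agreeing WT pair, which stood at 209 CPM against 8.34 in WT replicate 2 and 12.5, 8.97 and 5.5 in KI. Among 13 G1 genes the median was 0.01. Ccnd3, another D-type cyclin gene, was at 147 and 191 CPM in WT and at 88.3, 112 and 112 in KI (log2 -0.70 ± 0.23, adjusted p = 0.275), opposite in sign to Ccnd1. Of 11 tested Wnt targets 8 were above 0, with a median of 0.52. Axin2, a feedback gene of that pathway, overlapped (log2 0.52 ± 0.49), and Cdx1, a caudal homeobox gene, was at 5.85 and 3.64 CPM in WT and at 6.23, 30.9 and 21.6 in KI (log2 2.08 ± 0.84, adjusted p = 0.402).

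Genes of naive and core pluripotency were well expressed in both genotypes, and none passed the threshold by edgeR or limma-voom. At an unadjusted p under 0.05 there were 2 lower and 2 higher naive genes and 3 higher core genes, and DESeq2 called 1 gene, Utf1, higher. Over all tested genes 5.71% were lower and 5.03% higher at that unadjusted p. Of 17 naive genes, 8 were below 0 and 9 above it, with a median of 0.05 that ranged from -0.30 to 0.13 over the settings. Nanog was at 327 and 294 CPM in WT and at 289, 248 and 220 in KI (log2 -0.30 ± 0.15, adjusted p = 0.522). Klf4 lay the other way, at 168 and 127 CPM in WT and at 197, 239 and 222 in KI (log2 0.57 ± 0.18, adjusted p = 0.259), and Esrrb overlapped (log2 0.05 ± 0.17). Klf5 had a log2 fold change of -0.85 ± 0.26 and Gbx2 of 1.23 ± 0.57. All 12 core and Dppa genes had fold changes above 0, with every KI sample above WT in 7 of them and a median of 0.35. Pou5f1, which encodes OCT4, was at 792 and 714 CPM in WT and at 1002, 1016 and 1163 in KI (log2 0.49 ± 0.15, adjusted p = 0.25). Utf1, a chromatin factor of pluripotent cells, was at 573 and 627 CPM in WT and at 778, 1136 and 1448 in KI (log2 0.90 ± 0.25, adjusted p = 0.213).

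Genes of the formative and primed epiblast, the states that follow the naive one, lay mostly above WT in KI cells, but the sole member past the threshold lay below. Of 17 tested members, 13 were above 0 and 10 had every KI sample above WT, with a median of 0.42 that stayed between 0.41 and 0.52 over the settings. Hesx1, a homeobox repressor of the epiblast and later of the forebrain and pituitary, was at 11.5 and 18.3 CPM in WT and at 3.12, 2.5 and 2.96 in KI. The KI samples were at about the same low level, below both WT samples. Hesx1 (chr14:27000362-27002329) fell by 2.40 ± 0.34 on the log2 scale (adjusted p = 0.0221, and up to 0.225 with single libraries or the pair left out). Dnmt3a, a de novo DNA methyltransferase, was at 198 and 205 CPM in WT and at 351, 562 and 672 in KI (log2 1.39 ± 0.33, adjusted p = 0.146). Its sister enzyme Dnmt3b overlapped, at 244 and 292 CPM in WT and at 425, 277 and 342 in KI (log2 0.37 ± 0.22, adjusted p = 0.589). Sox3, Pou3f1 and Zic2, neural-side factors of the late epiblast, had log2 fold changes of 2.18 ± 0.50, 1.61 ± 0.57 and 1.02 ± 0.25, each with every KI sample above WT and an adjusted p over 0.05. By DESeq2 4 members were called, Hesx1 lower and Dnmt3a, Sox3 and Zic2 higher. Over all genes with a DESeq2 adjusted p, 1% were called lower and 0.72% higher.

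Signals that maintain or pattern the epiblast differed in sign between families. Of 9 Nodal and TGFβ genes 8 were above 0, with a median of 0.64, and 0 passed the threshold by edgeR or limma-voom, 4 higher ones did so at an unadjusted p under 0.05, and by DESeq2 Nodal did. Nodal, the ligand, was at 62.9 and 75.2 CPM in WT and at 146, 128 and 108 in KI (log2 0.88 ± 0.17, adjusted p = 0.0844). Lefty1, an inhibitor that Nodal induces, had a log2 fold change of 1.43 ± 0.53 and Gdf3, a related ligand, of 0.70 ± 0.21. Of 9 tested BMP targets 8 were below 0, with a median of -0.61, but 0 had an unadjusted p under 0.05 and edgeR, DESeq2 and limma-voom called 0. Id3 and Id2, direct BMP targets, had log2 fold changes of -1.39 ± 0.80 and -1.52 ± 0.75, and the ligand gene Bmp4 of -1.11 ± 0.52. LIF and STAT3 genes had a median of 0.14 over 11 members, and Socs3, the feedback inhibitor of LIF signalling, overlapped (log2 0.22 ± 0.24).

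Markers of the primitive endoderm, the extraembryonic layer that arises in some cells of LIF cultures, held 1 gene that fell, Lama1, of 14 tested. At an unadjusted p under 0.05 there were 5 lower markers, DESeq2 called 3 (Cubn, Lama1 and Pdgfra) and limma-voom 2. All 14 had fold changes below 0, 10 had every KI sample below WT, and the median was -1.62, between -1.73 and -1.16 over the settings. Lama1, the laminin α1 subunit gene of early basement membranes, was at 171 and 170 CPM in WT and at 53.3, 44.4 and 50.4 in KI. The WT samples were alike, and the highest KI sample was below them by a wide margin. Lama1 (chr17:67697259-67822647) fell by 1.79 ± 0.26 on the log2 scale (adjusted p = 0.0221), within -1.85 to -1.73 and with adjusted p-values up to 0.189 when single libraries or the pair were left out. Cubn, an endocytic receptor of visceral endoderm, was at 48.7 and 64.9 CPM in WT and at 2.08, 5.63 and 2.54 in KI (log2 -3.96 ± 0.69, adjusted p = 0.0537). Pdgfra, a receptor of primitive endoderm cells, was at 6.32 and 8.34 CPM in WT and at 1.38, 1.46 and 1.27 in KI (log2 -2.39 ± 0.51, adjusted p = 0.114). The lineage regulators were low throughout, with Gata6 at 5.22 and 9.1 CPM in WT and at 0.692, 3.55 and 4.23 in KI, and Sox17 at 2.21 and 2.12 in WT and at 0, 1.25 and 0.423 in KI. In such bulk samples, fewer cells of a type and less RNA per cell cannot be told apart.

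The laminin partners of Lama1 did not pass the threshold. Lamb1 and Lamc1, the β1 and γ1 subunit genes, had log2 fold changes of -0.19 ± 0.20 and -0.06 ± 0.14 with overlapping samples. Of 12 basement membrane genes 1 passed the threshold, 10 were below 0 and the median was -0.20. The collagen IV genes Col4a1 and Col4a2 had log2 fold changes of -1.72 ± 0.84 and -1.55 ± 0.82. The perlecan gene Hspg2 was at 1881 and 1958 CPM in WT and at 1420.4, 718 and 747 in KI. In all 3 genes every KI sample was below WT, and their adjusted p missed the threshold.

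Trophectoderm markers, of the other extraembryonic layer, had a median of -1.06 over 11 tested genes, 4 of them lower at an unadjusted p under 0.05 and 0 called by edgeR, DESeq2 or limma-voom, but the WT samples differed. Their median level over the list lay 0.58 log2 units below the WT mean in the agreeing pair and 0.58 above it in WT replicate 2, and at -0.83 to -0.78 in KI. Without WT replicate 2 the median fold change was -0.35. Gata3 was alike in both WT samples, at 19.3 and 20.9 CPM, and stood at 4.15, 1.04 and 3.39 in KI (log2 -2.89 ± 0.86, adjusted p = 0.242). Krt8 and Krt18, keratins of simple epithelia, were high in WT replicate 2 alone, at 70.5 and 93.8 CPM. Fibroblast markers had a median of -0.21, which became 1.48 without WT replicate 2. Relative to the WT mean, their median level was -0.79 in the agreeing pair and 0.79 in WT replicate 2. It was 0.02, 0.66 and 0.31 in KI replicates 1, 2 and 3. Summed over each list, CPM in the WT pair, WT replicate 2 and the KI replicates in order was 1570, 1859, 1310, 1207 and 1244 for primitive endoderm, 396, 547, 267, 294 and 259 for trophectoderm, and 1899, 2101, 1902, 2507 and 1953 for fibroblasts. The part of these cell types in the other results was not tested.

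Olig2, a bHLH factor of motor neuron and oligodendrocyte precursors, rose. It was at 26.6 and 24.3 CPM in WT and at 79.3, 92.6 and 83.8 in KI, with narrow groups far apart. Olig2 (chr16:91225457-91228677) rose by 1.75 ± 0.25 on the log2 scale (adjusted p = 0.0221, and up to 0.283 with single libraries or the pair left out). The neighbouring family member Olig1 was at 21.5 and 16.4 CPM in WT and at 37, 46.3 and 43.6 in KI (log2 1.16 ± 0.37, adjusted p = 0.26). Of the 8 neural markers tested, 3 were below 0 and 5 above it, with a median of 0.46. Sox1 was at 5.85 and 12.1 CPM in WT and at 9, 33.2 and 36.4 in KI, with KI replicate 1 inside the WT range. Pax6 and Map2 stayed under 6 CPM in every sample. The 8 neural markers summed to 131 and 145 CPM in WT and to 253, 272 and 266 in KI. Olig2 and Olig1 are part of that sum, so it is not separate from their values above.

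The remaining genes past the threshold belonged to no list and spanned several functions. Sema5a, a membrane semaphorin of axon guidance (chr15:32244813-32696341), was at 39.7 and 59.4 CPM in WT and at 6.58, 9.6 and 11 in KI. Every KI sample was far below the WT samples, and Sema5a fell by 2.45 ± 0.24 on the log2 scale (adjusted p = 0.00384). It was the one gene of the 19 past the threshold in all 17 alternatives. Myo7a, an unconventional myosin of hair cells and photoreceptors, was at 32.4 and 36.1 CPM in WT and at 5.19, 6.47 and 5.5 in KI, and fell by 2.56 ± 0.32 (adjusted p = 0.0101). Dnah12, an axonemal dynein heavy chain, was at 37.1 and 28.2 CPM in WT and at 8.65, 5.22 and 6.35 in KI, and fell by 2.29 ± 0.27 (adjusted p = 0.0101). These genes showed no overlap, although Myo7a and Dnah12 are best known from sensory and ciliated cells.

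Metabolic genes outside amino acid synthesis were among them too. Acaa2, the mitochondrial thiolase of fatty acid oxidation, was at 85.3 and 102 CPM in WT and at 33.2, 34.2 and 28.4 in KI, and fell by 1.54 ± 0.22 (adjusted p = 0.0221). Aox3, an aldehyde oxidase, was at 22.1 and 21.4 CPM in WT and at 5.54, 2.3 and 1.69 in KI, and fell by 2.79 ± 0.46 (adjusted p = 0.0428). Dclk2, a microtubule-binding kinase, fell by 1.10 ± 0.17 and Med12l, a paralogue of a Mediator subunit, by 1.41 ± 0.22. Rhox6, a homeobox gene of the X-linked reproductive cluster, was at 16 and 23.3 CPM in WT and at 2.77, 4.38 and 2.96 in KI, and fell by 2.50 ± 0.39. Rhox genes have near-identical copies, and how shared reads were counted is not given in the sources used here, so its value is uncertain. With single libraries or the pair left out, the adjusted p reached 0.0845 for Myo7a, 0.0933 for Dnah12, 0.225 for Acaa2 and Aox3, 0.28 for Dclk2, 0.246 for Med12l and 0.336 for Rhox6.

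Dhrs7, a steroid and retinoid reductase, and Sgpp1, a sphingosine-1-phosphate phosphatase, lie on chromosome 12 with the edited gene, 6.22 and 3.15 megabases from Eif2s1. Dhrs7 was at 37.5 and 33.7 CPM in WT and at 12.5, 10.4 and 7.62 in KI, and fell by 1.79 ± 0.25 (adjusted p = 0.0221). Sgpp1 was at 26.2 and 25.9 CPM in WT and at 10.4, 9.39 and 8.46 in KI, and fell by 1.46 ± 0.22 (adjusted p = 0.0264). No sample overlapped in either gene. Without single libraries or the pair their adjusted p-values reached 0.167 and 0.224. Of 187 tested genes within 20 megabases of Eif2s1 these were the ones that passed the threshold (1.07%), against 0.13% of the 13052 other tested genes. Whether the strain of origin differs near the edited allele cannot be read from these counts and was not tested.

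The 6 genes with the smallest p-values outside the threshold included Nars and Cubn. Myo1f, a myosin of immune cells, was at 2.21 and 1.21 CPM in WT and at 15.6, 14.2 and 11.8 in KI (log2 3.01, adjusted p = 0.0517). Pcolce, an enhancer of collagen processing, was at 49.9 and 25.6 CPM in WT and at 125, 93.7 and 125 in KI (log2 1.60, adjusted p = 0.0645). Xpo4, a nuclear export receptor, was at 181 and 229 CPM in WT and at 320, 363 and 418 in KI (log2 0.84, adjusted p = 0.0645). S1pr1, a sphingosine-1-phosphate receptor, had 20, 32 and 23 counts in WT replicates 1, 2 and 3 and 1, 1 and 0 in KI, too few for a fold change.

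**Figure D4:**
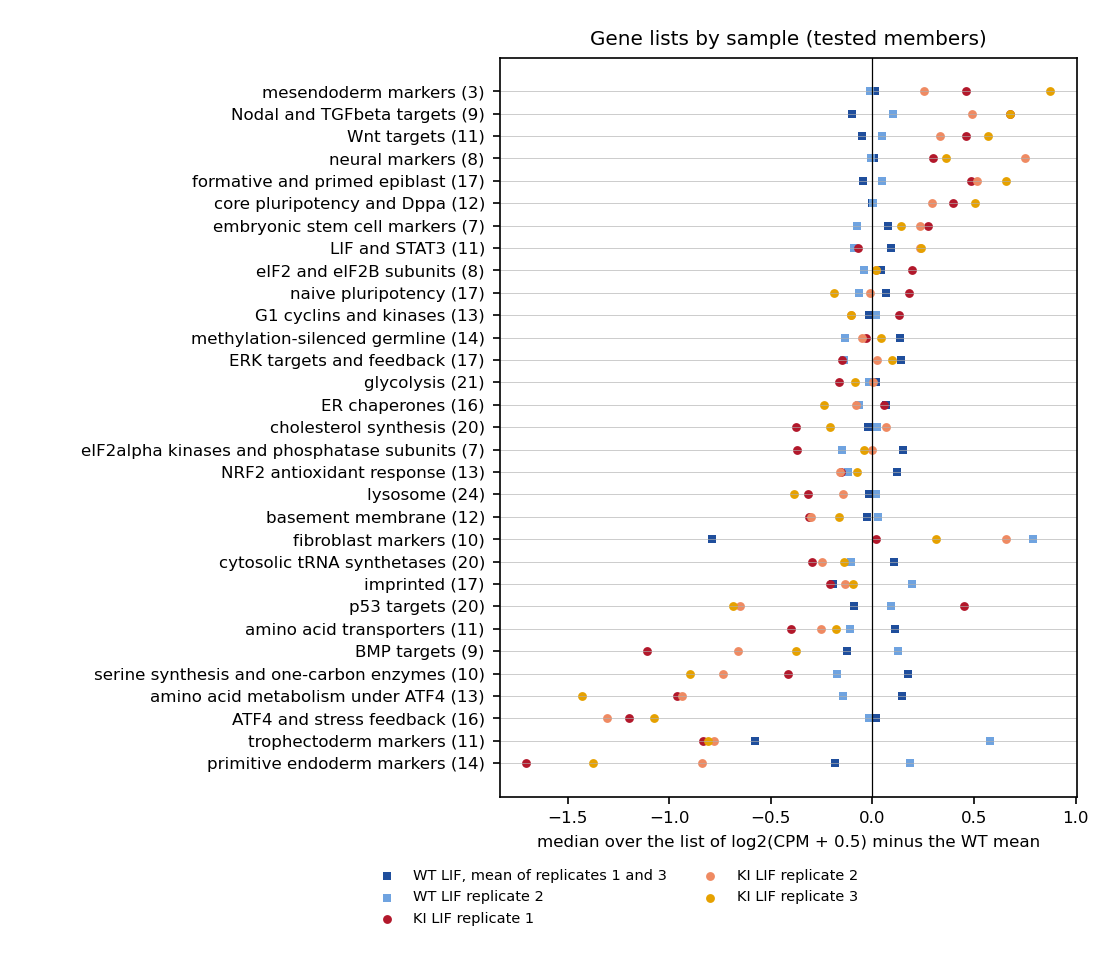
Median over the tested members of each list (number in brackets) of log2(CPM + 0.5) minus the WT mean, by sample; squares are WT samples and circles KI samples. The ATF4 feedback, amino acid metabolism and primitive endoderm lists have all KI circles left of both WT squares. So do the serine, transporter, tRNA synthetase, lysosome, BMP, basement membrane and trophectoderm lists. Other lists, among them core pluripotency and Nodal, have all KI circles right of both WT squares. The trophectoderm and fibroblast lists have widely spaced WT squares.

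Some genes that fell in LIF had smaller estimated fold changes in LIF/2i, but no difference between media passed the threshold. Of the 19 genes, 10 passed the threshold for KI against WT in LIF/2i as well, where 129 of all tested genes rose (0.974%) and 165 fell (1.25%), and 9 did not. Among those 9 were Pck2, Hesx1, Acaa2, Lama1, Rhox6, Asns, Psph and Psat1. In LIF/2i the mean of Asns was 1234 CPM in WT and 1104 in KI (log2 -0.16, adjusted p = 0.735), and that of Pck2 was 61.1 and 48.7 (log2 -0.33, adjusted p = 0.37). Psat1 was at 76.2 and 81.5 CPM (log2 0.10) and Psph at 31.9 and 28.2 (log2 -0.18). By contrast Ccnd1, at 14.1 and 85.4 CPM (log2 2.59), Olig2, at 9.98 and 55.9 (log2 2.49), and Myo7a, at 73.3 and 2.59 (log2 -4.86), passed it in both media. The difference between media was itself tested as the genotype by medium interaction, which called 0 of 13239 genes by edgeR. At an unadjusted p under 0.05 it held 13 of the 19 genes, against 798 of all tested genes (6.03%), but the 19 were chosen by the LIF values that enter this test, so that count is a description. Deviations of same-numbered KI samples correlated positively across media. KI samples with different numbers were not compared, so matching by number was not shown. A fit with the KI replicate number as a block was chosen after seeing the data. In that fit the interaction again called 0 genes (smallest adjusted p = 0.0648). It held 14 of the 19 and 1161 of all genes at an unadjusted p under 0.05. A difference between media was not shown for any gene by these fits.

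**Figure D5:**
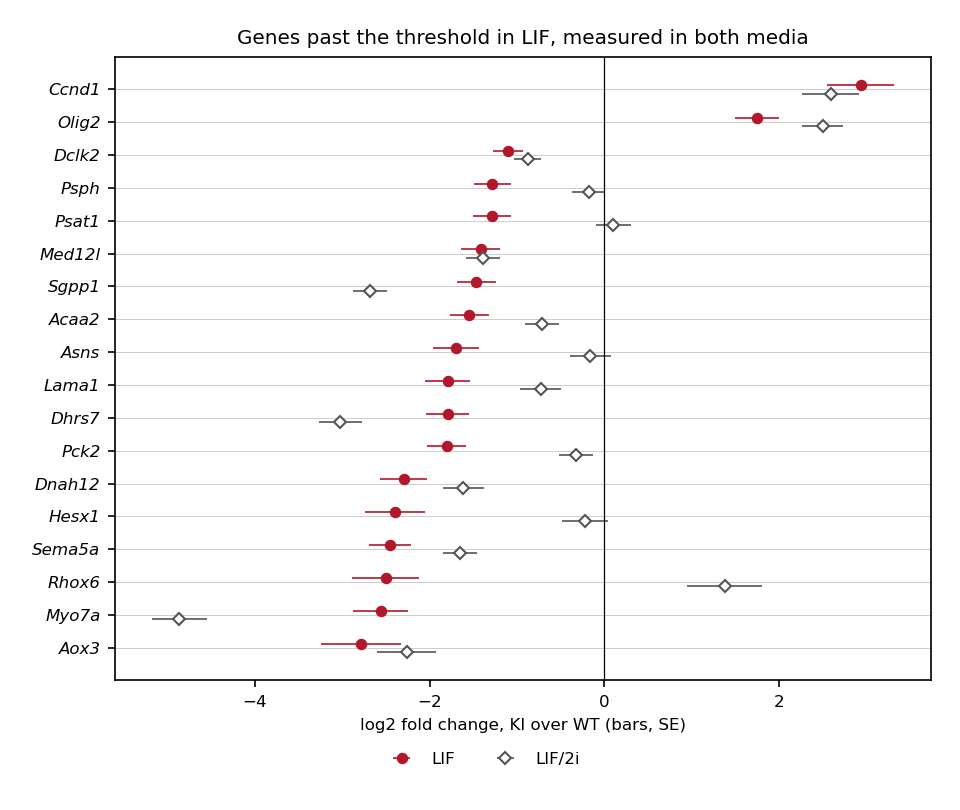
Log2 fold change of KI over WT (bars, SE) for 18 of the 19 genes past the threshold in LIF; filled circles are LIF and open diamonds LIF/2i. Asns, Psat1, Psph, Pck2 and Hesx1 have diamonds near 0, Ccnd1 and Olig2 lie right of 0 in both media, and Rhox6 has opposite signs. In LIF/2i Rhox6 was low, at a mean of 0.919 CPM in WT and 2.35 in KI. Its difference there did not pass the threshold (edgeR adjusted p = 0.108).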

How the data were processed

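RNA-seq of 12 libraries was analysed. The deposited values are raw counts per gene, with no normalization, and per the file headers 1 transcript stands for each gene and reads of its coding part were counted. The tools listed in the submitters' processing notes, without roles, are UMI-tools 1.0.1, Bowtie 1.3.0 and cutadapt 3.4. For genome build, annotation, strand and shared reads, the setting is not given in the sources used here. Values of genes with copies or overlapping partners are thus uncertain. Of 22416 transcripts 22155 were found in GENCODE M21 (GRCm38), 21766 with the same symbol, which gave the positions. Promoters are RefSeq windows on GRCm38.p6.

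Genes were kept by filterByExpr at a minimum count of 10. TMM-scaled counts of 11 samples were fitted with edgeR 4.0.16 in R 4.3.3 (robust quasi-likelihood, 1 mean per group of genotype and medium). KI was tested against WT in LIF, two-sided, with Benjamini-Hochberg adjustment at 0.05. WT LIF replicates 1 and 3 entered as their mean. The biological coefficient of variation was 0.234, and standard errors come from the F statistic. The code was tested on simulated data. Of genes changed in KI in LIF, 26 of 99 were called at a 2-fold change (26.3%) and 79 of 98 at a 4-fold change (80.6%). Of the unchanged genes 8 were called. A gene not past the threshold is thus not shown to be unchanged. Alternatives were DESeq2 1.42.0, limma-voom (limma 3.58.1), other scalings, filters and sample sets, the replicate block, and leaving out libraries. Deviations of same-numbered KI samples in LIF and LIF/2i correlated at 0.507, 0.388 and 0.224, so the interaction was also fitted with a block for the KI replicates. KI samples with different numbers were not compared across media.

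The members and lists were chosen with earlier results of these data known. Genes named are those past the threshold (1 of them is not reported here), the 6 next by p, up to 4 more per list with the largest fold change at a mean of at least 5 CPM, a panel (Eif2s1, Atf4, Asns, Trib3, Nanog, Esrrb, Klf4, Pou5f1, Dnmt3b) and Y-linked genes. Other members named were chosen after their values were seen.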

Additional observations from a re-analysis of the deposited data

How the results depend on the processing

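Against 2 genes higher and 17 lower, DESeq2 gave 86 higher and 120 lower, limma-voom 2 and 9, no filter on low counts 5 and 27, a test against a 1.5-fold change 1 and 3, only the 2 LIF groups 9 and 22, and all 12 libraries as separate samples 57 and 85. Of the 19 genes, DESeq2 called 19, library totals alone 16, only the LIF groups 13, limma-voom 9 and the 1.5-fold test 4. Other size factors, library totals and a minimum count of 30 gave 2 higher and 15 to 18 lower. Leaving out single libraries or the agreeing pair gave 0 to 5 higher and 1 to 17 lower. Higher genes numbered 0 without WT replicate 2, without the pair, without KI replicate 2 and without KI replicate 3, where 829, 991, 1111 and 869 genes had an unadjusted p under 0.05, against 1422 with all samples. Over 17 alternatives, 109 of 323 values of the 19 genes lost the threshold. Of 2003 values of 118 other named genes 80 gained it. Reversals of sign were counted only where the main fit or the alternative passed the threshold, and there were 0. Sign changes of genes past it in neither fit were not counted. Where a call was lost with fewer samples, the smaller sample number is part of that setting, and other causes were not tested.

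In a fit of all 12 libraries with a replicate block, 65 genes were higher and 109 lower. Deviations of same-numbered KI and WT LIF samples correlated at 0.0375, 0.0304 and -0.0319, so the numbers are not taken to pair the genotypes. The KI replicate block across media left the interaction at 0 genes. The depth of the KI libraries, 2307219 to 4609908 counts, limits what can be read from genes under about 1 CPM.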

Other observations

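Lysosome, cholesterol and glycolysis genes held 0 genes past the threshold by edgeR or limma-voom. At an unadjusted p under 0.05 there were 7 lysosome genes, all lower, 2 lower and 1 higher cholesterol genes, and 2 lower glycolysis genes. Over all tested genes the shares at that p were 5.71% lower and 5.03% higher. DESeq2 called Asah1, Psap and Pfkp. Of 24 lysosome genes 21 were below 0, with a median log2 fold change of -0.20. In 10 of them every KI sample was below WT, against 15.8% of all tested genes. Asah1, the acid ceramidase, was at 246 and 207 CPM in WT and at 122, 153 and 124 in KI (log2 -0.77, edgeR adjusted p = 0.104), and Psap, the precursor of the saposins, was at 544 and 575 in WT and at 393, 333 and 285 in KI (log2 -0.73, adjusted p = 0.122). Of 20 cholesterol synthesis genes 15 were below 0, with a median of -0.13. Pmvk, of the mevalonate pathway, had a log2 fold change of -0.98. Of 21 tested glycolysis genes 13 were below 0, with a median of -0.09. Pfkp, the platelet-type phosphofructokinase, was at 305 and 249 CPM in WT and at 89.3, 99.5 and 63.9 in KI (log2 -1.71, adjusted p = 0.148), while its liver-type relative Pfkl had a log2 fold change of 0.37. Several glycolysis genes have many processed pseudogenes, and Gapdh had 2 counts in 1 WT library and 0 in the other LIF libraries, so this list is uncertain.

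Targets of p53 separated the KI libraries from each other. Over 20 tested targets the median level relative to WT was 0.45 in KI replicate 1, -0.65 in replicate 2 and -0.69 in replicate 3. Ccng1, a p53-induced cyclin, was at 239 and 339 CPM in WT and at 426, 125 and 117 in KI. Without KI replicate 1 the list's median log2 fold change went from -0.26 to -0.73. Among 17 tested imprinted genes 10 were below 0, and edgeR, DESeq2 and limma-voom called 0. At an unadjusted p under 0.05 there were 3, against 5.71% lower and 5.03% higher over all tested genes. Peg10, a retrotransposon-derived gene, was at 1839 and 3715 CPM in WT and at 1598, 772 and 954 in KI (log2 -1.33, adjusted p = 0.576), and Phlda2, which limits placental growth, was at 20.1 and 32.4 in WT and at 53.7, 87 and 79.5 in KI (log2 1.48, adjusted p = 0.395).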
